A study of Rattus norvegicus with 20 samples.

Results

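The miR-196 and miR-10 families of rat kidney were followed through 3 time points of aristolochic acid I (AAI) treatment. The set comprised 5 mature miRNAs, rno-miR-196a-5p, rno-miR-196b-5p, rno-miR-196c-5p, rno-miR-10a-5p and rno-miR-10b-5p, of 719 rat miRNAs on the array, and each was taken by its name in the scanner files. All 5 were detected on all 20 arrays and all 5 were among the 262 miRNAs tested. AAI is a plant nitrophenanthrene acid that injures the proximal tubule of the kidney.

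Kidney RNA came from male Wistar rats, and each sample was hybridised to its own 1-colour Agilent miRNA array. The vehicle group (5 arrays) had received PEG400 in water on the same schedule and was collected on day 6 only. The AAI groups had received 40 mg/kg by intraperitoneal injection and were collected on day 2 (5 arrays), day 4 (5 arrays) and day 6 (5 arrays). The labels speak of 5 kidneys per group and time point and do not say whether they came from separate rats, so the p-values below measure the spread between these samples. Days 2 and 4 had no vehicle of their own, so time and treatment cannot be told apart in those comparisons. All 7 miRNAs of a kidney epithelium list, among them miR-192-5p, miR-194-5p and miR-204-5p, were detected on all 20 arrays, but so were all 5 of a stromal list and both of an endothelial list, so detection does not single out kidney and was no check of the label.

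Hox genes encode transcription factors that give cells their position along the body axis, and they lie in 4 clusters. The miR-196 and miR-10 genes sit among the Hox genes of these clusters and are largely transcribed along with them, and both families repress Hox transcripts, miR-196 acting on Hoxb8 as the best known case in mouse. Posterior organs, the kidney included, express both families.

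Mature sequences from RefSeq (GRCr8) are shown because the whole comparison rests on telling these near-identical molecules apart. Capitals mark the seed, bases 2 to 8 from the 5′ end, which sets most of the target choice.
rno-miR-196a-5p: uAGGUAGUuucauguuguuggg
rno-miR-196b-5p: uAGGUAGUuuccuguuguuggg
rno-miR-196c-5p: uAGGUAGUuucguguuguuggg
rno-miR-10a-5p: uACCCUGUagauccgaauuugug
rno-miR-10b-5p: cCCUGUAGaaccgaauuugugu
The 3 miR-196 members shared 1 seed, and no other of the 693 mature rat miRNAs in the RefSeq table had it. They differed from each other at 1 base in the centre, A12C between miR-196a and miR-196b, A12G between miR-196a and miR-196c and C12G between miR-196b and miR-196c, counted from 1 at the 5′ end. The annotated miR-10b started 2 bases later than miR-10a, so that the annotated seeds of the pair differed in frame. Over the 21 positions the pair had in common, 1 base differed (U12A, in miR-10a numbering). A run of 6 bases in the miR-196 seed is also found in the seed of let-7a-5p, starting 1 base later there.

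In the RefSeq annotation miR-196a lay between Hoxc10 and Hoxc9 on chromosome 7, miR-196b between Hoxa9 and Hoxa10 on chromosome 4, and miR-196c between Hoxb13 and Hoxb9 on chromosome 10. The gene for miR-10a lay in the same Hoxb cluster, between Hoxb5 and Hoxb4. The gene for miR-10b lay within the span of Hoxd4 on chromosome 3, with exon or intron not settled here. None of the other members lay within a protein-coding gene. The array files place the longest probe of each on rn4 at chr7:141736783-141736804 (miR-196a, plus strand), chr4:80530396-80530415 (miR-196b, minus strand), chr10:84995958-84995979 (miR-196c, plus strand), chr10:85049337-85049357 (miR-10a, plus strand) and chr3:57340880-57340901 (miR-10b, plus strand).

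The longest probes for the miR-196 members are printed because they too differ at a single base, shown in capitals, which pairs with base 12 of the miRNA.
miR-196a probe: cccaacaacaTgaaactaccta
miR-196b probe: cccaacaacaGgaaactacc
miR-196c probe: cccaacaacaCgaaactaccta
Cross-hybridisation among the members was not tested.

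By day 6 of AAI all 3 miR-196 members had fallen against vehicle, by 19.6% to 24.0%, and neither miR-10 member passed the test. This holds with arrays scaled to their 75th percentile; with no scaling the day 6 changes of miR-196a-5p and miR-196b-5p were slightly above 0 (0.05 and 0.04 in log2). The fall at day 4 passed only for miR-196c-5p, and no member passed at day 2. Levels below are log2 of the summed probe signal divided by the array's 75th percentile over miRNAs detected on all arrays, so 0 is that percentile. A member was called at an adjusted p under 0.05 in limma's moderated test over all 262 miRNAs. Levels of different miRNAs are not set against each other, since probes differ in brightness for equal amounts.

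miR-196c-5p, the HoxB member, had the only change that passed at day 4 as well as day 6. Its change was beyond those of the other miR-196 members with summed probe signals, but not with the mean of log2 probe signals, normexp or the software's total. Those settings handle its dim probes otherwise, as given below. The difference between members was not tested. Its level was -2.24, -2.06, -2.20, -2.26 and -2.17 on the 5 AAI day 6 arrays, against -1.68, -1.82, -1.87, -1.77 and -1.81 on the 5 vehicle arrays. Every AAI day 6 array lay below every vehicle array. The mean was -2.19 ± 0.08 at AAI day 6 and -1.79 ± 0.07 in vehicle (SD, n = 5 each), a log2 change of -0.40 ± 0.08 (SE, adjusted p = 0.00224), or 24.0% lower (95% interval 14.2 to 32.7%). The AAI day 4 arrays read -2.26, -2.40, -1.99, -1.97 and -2.06, again all below vehicle, and the change was -0.35 ± 0.08 (SE, adjusted p = 0.0192). AAI day 2 gave -1.84, -1.79, -1.84, -2.08 and -1.86, which overlapped vehicle, with a change of -0.09 ± 0.08 (SE, adjusted p = 0.788).

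miR-196b-5p, the HoxA member, had the tightest vehicle group of the 5 members. It read -0.46, -0.19, -0.51, -0.42 and -0.30 at AAI day 6, against -0.04, -0.05, -0.07, -0.08 and -0.01 in vehicle. The AAI day 6 arrays were all below the lowest vehicle array. The mean was -0.38 ± 0.13 at AAI day 6 and -0.05 ± 0.03 in vehicle (SD, n = 5 each), a change of -0.33 ± 0.08 (SE, adjusted p = 0.00568), or 20.4% lower (95% interval 10.5 to 29.3%). The arrays of AAI day 2 read -0.11, -0.17, -0.27, -0.25 and -0.14, and those of AAI day 4 read -0.29, -0.55, -0.15, -0.09 and -0.20. Both sets also lay wholly below vehicle, but their changes of -0.14 ± 0.08 (SE, adjusted p = 0.577) and -0.21 ± 0.08 (SE, adjusted p = 0.144) did not pass.

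miR-196a-5p, the HoxC member, read -0.60, -0.40, -0.55, -0.48 and -0.44 at AAI day 6, against -0.15, -0.22, -0.16, -0.20 and -0.18 in vehicle. These groups did not overlap. The mean was -0.50 ± 0.08 at AAI day 6 and -0.18 ± 0.03 in vehicle (SD, n = 5 each), a change of -0.31 ± 0.08 (SE, adjusted p = 0.00759), or 19.6% lower (95% interval 9.39 to 28.6%). AAI day 2 gave -0.14, -0.14, -0.28, -0.36 and -0.16, and AAI day 4 gave -0.45, -0.70, -0.20, -0.28 and -0.35. Both overlapped vehicle, with changes of -0.04 ± 0.08 (SE, adjusted p = 0.892) and -0.22 ± 0.08 (SE, adjusted p = 0.144).

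miR-10a-5p, encoded some way along the same HoxB cluster as miR-196c, ranged from 3.26 to 3.64 at AAI day 6, against 3.35 to 3.72 in vehicle. The change was -0.10 ± 0.12 (SE, adjusted p = 0.550), with a 95% interval of -0.34 to 0.15, so a change as large as that of miR-196a lay inside the interval. It ranged from 3.27 to 3.65 at AAI day 2 (change -0.03, adjusted p = 0.940) and from 3.05 to 3.72 at AAI day 4 (change -0.14, adjusted p = 0.467). All 3 AAI groups overlapped vehicle.

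miR-10b-5p, the HoxD member, ranged from 2.30 to 2.58 at AAI day 6, against 2.47 to 2.64 in vehicle. The change was -0.11 ± 0.10 (SE, adjusted p = 0.410), with a 95% interval of -0.32 to 0.09. A change as large as that of miR-196a lay just inside that interval too. It ranged from 2.33 to 2.57 at AAI day 2 (change -0.09, adjusted p = 0.795) and from 2.04 to 2.59 at AAI day 4 (change -0.16, adjusted p = 0.312). These groups overlapped vehicle as well.

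**Figure D1:**
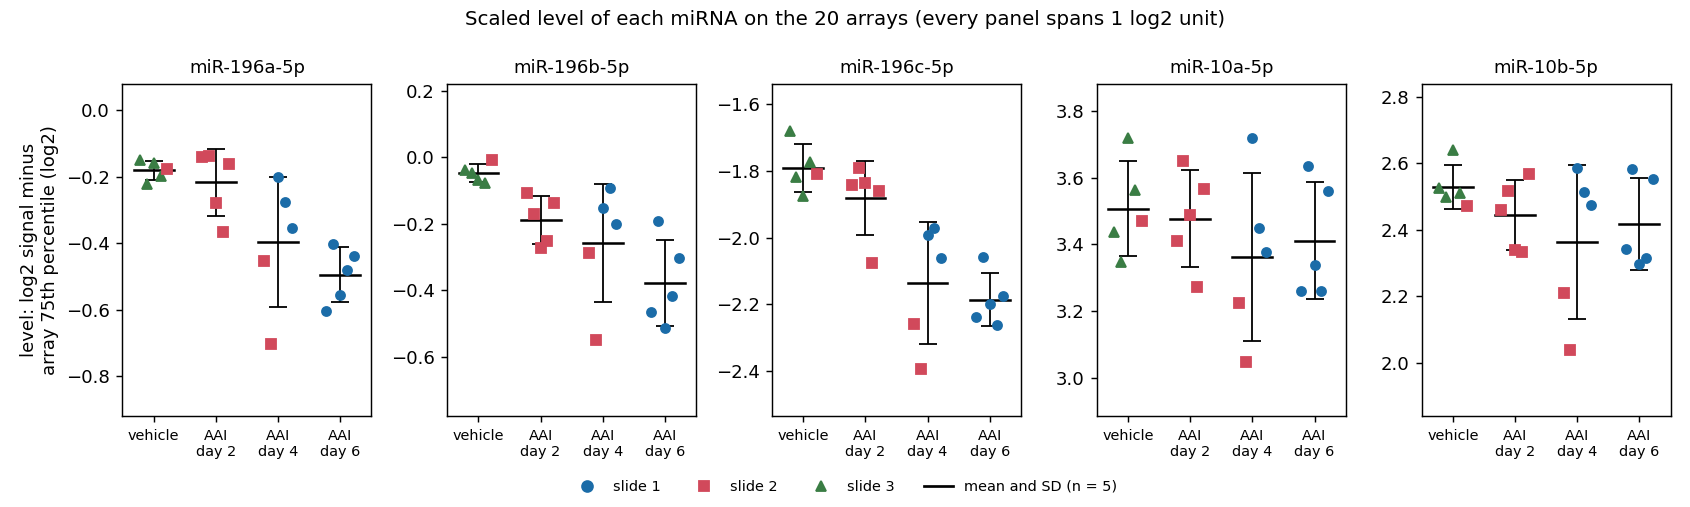
Scaled level (log2, 0 is the array's 75th percentile) of the 5 miRNAs on the vehicle arrays and on those of AAI days 2, 4 and 6, with 1 panel per miRNA and markers by slide. Horizontal lines are group means and bars are SD (n = 5); the AAI day 6 points lie wholly below the vehicle points for the 3 miR-196 members and overlap them for both miR-10 members.

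Counted over the 5 members, 3 were called lower at AAI day 6 against vehicle, where 26% of the 262 miRNAs were called and 18.7% were called lower. In 3 of 5 the AAI day 6 arrays lay wholly below vehicle, as in 19.1% of all tested miRNAs. The median change of the members was -0.31, beside -0.11 over all 262. At AAI day 4, 1 of 5 was called lower, where 3.44% of all were called and 1.15% were called lower, and 2 of 5 lay wholly below vehicle, as did 3.82% of all. At AAI day 2 none was called by limma (1.53% of all were called), and 1 of 5 lay wholly below vehicle, as did 2.29% of all. There 0 members had an unadjusted p under 0.05, beside 29 of all 262. The 3 comparisons share the vehicle arrays.

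**Figure D2:**
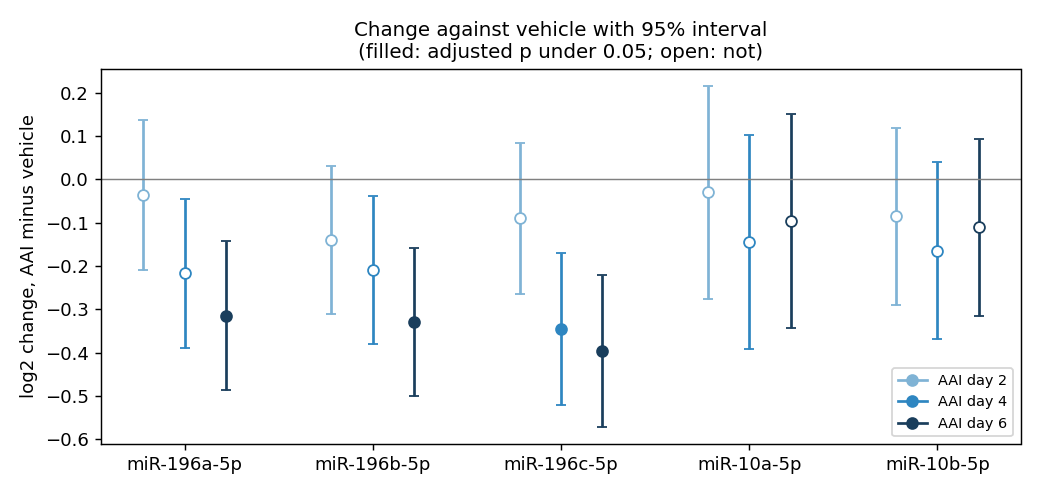
Log2 change of each miRNA at AAI days 2, 4 and 6 minus vehicle, with 95% intervals. Filled points passed an adjusted p under 0.05: miR-196c-5p at day 4 (-0.35) and all 3 miR-196 members at day 6 (-0.31 to -0.40), where miR-196a-5p and miR-196b-5p turned to 0.05 and 0.04 with no scaling.

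In order of group means, all 3 miR-196 members stood highest in vehicle, then AAI day 2, AAI day 4 and AAI day 6. Both miR-10 members stood highest in vehicle, then AAI day 2, AAI day 6 and AAI day 4. No neighbouring groups in that order differed by the test for any member. Between AAI days, 2 of 5 members were called lower at day 6 against day 2 (11.1% of all miRNAs were called, 7.63% lower), miR-196a-5p by -0.28 ± 0.08 (SE, adjusted p = 0.0347) and miR-196c-5p by -0.31 ± 0.08 (SE, adjusted p = 0.0261). The day 6 arrays lay wholly below those of day 2 for miR-196a-5p, as for 7.25% of all miRNAs, and overlapped for miR-196c-5p. Leaving out any of 6 single arrays, 1, 2 or 5 of AAI day 2 or 1, 3 or 5 of AAI day 6, ended both calls (adjusted p 0.0547 to 0.0833). Both calls were also lost under each of the other scalings, in the deposited table, with outlier spots kept, with normexp, with the software's total and with the replicate block. Day 4 against day 2 and day 6 against day 4 gave 0 called members by limma, where 0% and 0.763% of all miRNAs were called. In these comparisons 2 members and 0 members had an unadjusted p under 0.05, beside 20 and 24 of all 262. Over the 4 groups together, limma's F test passed for miR-196c-5p (adjusted p = 0.00483), miR-196a-5p (adjusted p = 0.0261) and miR-196b-5p (adjusted p = 0.0375), against 17.9% of all miRNAs, and not for miR-10a-5p (adjusted p = 0.772) or miR-10b-5p (adjusted p = 0.622). All 3 were lost, with 0 members passing, with no scaling, spike-in scaling, median scaling, the software's total and the deposited table.

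The size of the fall, and for 2 members its sign, depended on how arrays were scaled. With no scaling, the AAI day 6 changes were 0.05 for miR-196a-5p, 0.04 for miR-196b-5p and -0.03 for miR-196c-5p, and 0.26 was the median of all miRNAs. Scaled to labelling spike-ins they were, in the same order, -0.05, -0.07 and -0.13 (adjusted p 0.712 to 0.886), and the median of all was 0.15. The software's own total gene signal gave -0.10, -0.11 and -0.11 (adjusted p 0.509 to 0.556). That total was 0.657 to 0.674 of the probe sum over the arrays for miR-196a-5p and miR-196b-5p, nearly a constant factor. For miR-196c-5p it was 2.34 to 2.96, so its total is not the same kind of sum as for the other members. Scaling to the array median kept the direction, at -0.27, -0.29 and -0.35, without a call (adjusted p 0.126 to 0.238). Measured from the median of all tested miRNAs, with no scaling, spike-ins or the array median, and under the 75th percentile of detected or of all miRNAs, the changes were -0.20 for miR-196a-5p, -0.22 for miR-196b-5p and -0.28 for miR-196c-5p. These 5 settings cannot differ in this, since a factor per array shifts every miRNA and the median alike. Quantile normalization, which is not such a factor, gave -0.18, -0.18 and -0.29 from its own median. With the 75th percentile, miR-10a-5p was 0.016 and miR-10b-5p 0.0019 from the median of all.

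**Figure D3:**
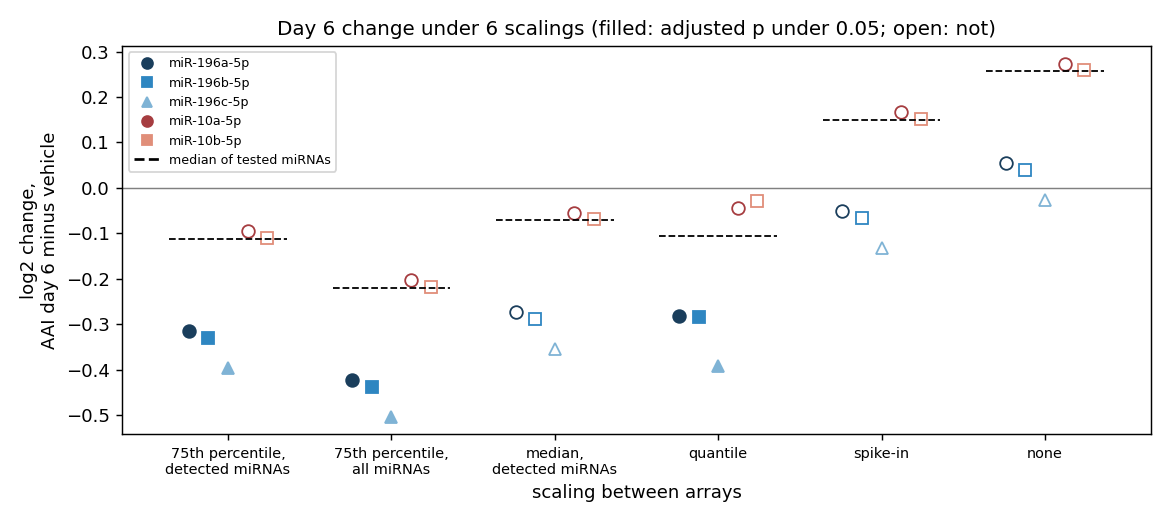
Log2 change at AAI day 6 minus vehicle for the 5 miRNAs under 6 ways of scaling arrays, with the median of all tested miRNAs as a dashed line. Filled points passed an adjusted p under 0.05; the miR-196 points lie below the dashed line, at a distance that is the same by construction in all settings but quantile normalization, and both miR-10 points lie on or near it.

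Differences between members on the same array do not depend on any scaling factor per array. Relative to miR-10b-5p, miR-196b-5p stood at -2.80 ± 0.05 at AAI day 6 and -2.58 ± 0.08 in vehicle (SD, n = 5 each), a shift of -0.22, and the groups did not overlap. The same shift was -0.20 for miR-196a-5p and -0.29 for miR-196c-5p, with 1 or more arrays overlapping. Relative to miR-10a-5p the shifts of the 3 members were -0.22, -0.23 and -0.30, all with overlap. Within the miR-10 pair the shift was 0.01, and within the miR-196 family the shifts were 0.02 to 0.08. Of the 10 pairs of members, 1 did not overlap vehicle at AAI day 6, 1 at AAI day 4 (miR-196b-5p minus miR-196c-5p, shift 0.14) and 0 at AAI day 2. These differences are given without a test.

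**Figure D4:**
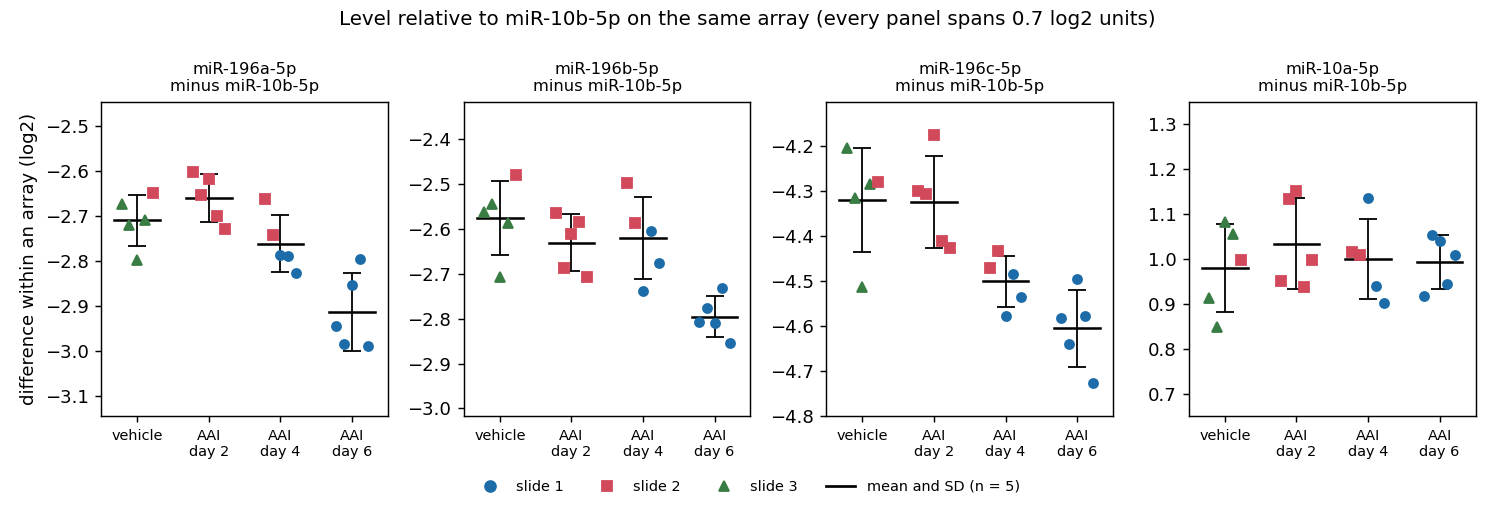
Difference in log2 level from miR-10b-5p on the same array, for the 3 miR-196 members and miR-10a-5p, in vehicle and at AAI days 2, 4 and 6. Lines and bars are mean and SD (n = 5); the miR-196 means are lowest at AAI day 6 (-2.91, -2.80 and -4.61), and the miR-10a mean stayed between 0.98 and 1.03.

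The individual probes above background gave the same direction for the miR-196 members. Of their 8 probes, 7 had spots above background on every array, and all 7 were lower in scaled signal at AAI day 6 than in vehicle. The 20-base miR-196c probe among them was dim, with a mean signal of 17.0 and all its spots above background on 14 of 20 arrays. The probes of miR-196a changed by -0.31 and -0.32, those of miR-196b by -0.44 and -0.28, and those of miR-196c by -0.27, -0.41 and -0.47. The shortest miR-196c probe, of 19 bases, was not well above background on any of the 20 arrays and is left out of that count. Both miR-10a probes (-0.09 and -0.10) and both miR-10b probes (-0.11 and -0.11) lay nearer to 0. No spot of these probes was saturated. The 19-base miR-196c probe changed by 0.25 at day 6, the other way. Averaging log2 probe signals gives the dim miR-196c probes, that one included, equal weight. It left miR-196c-5p at -0.23 (adjusted p = 0.0644) at day 6. Normexp background correction with an offset of 50 left miR-196c-5p at -0.19 (adjusted p = 0.512). That offset lies above the mean signal of each miR-196c probe (3.59 to 49.6), which shrinks log2 changes.

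**Figure D5:**
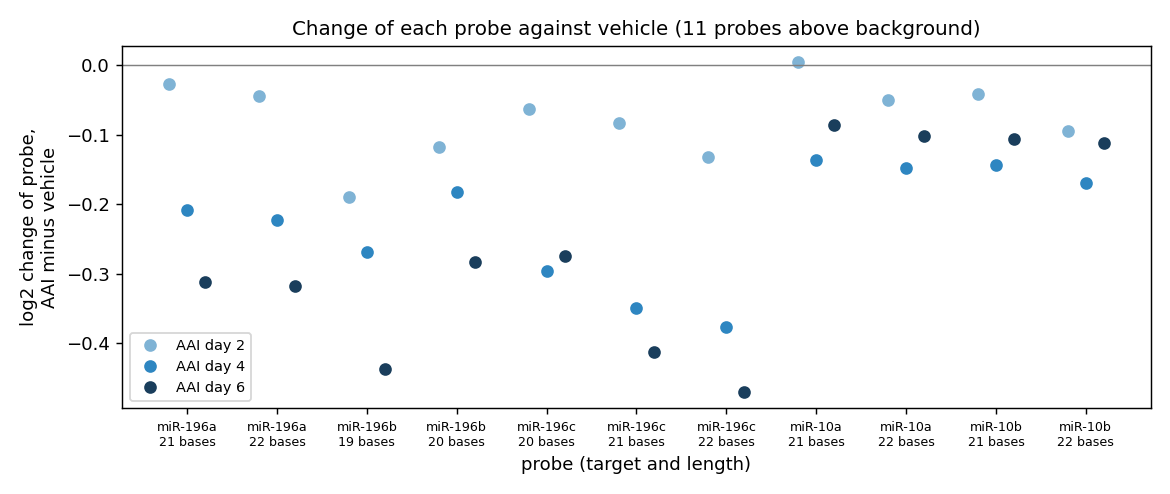
Log2 change of the 11 probes with spots above background on every array, at AAI days 2, 4 and 6 minus vehicle, by target and probe length in bases. The 20-base miR-196c probe had all its spots above background on 14 of 20 arrays. Points are differences of group means (n = 5 each); the 7 miR-196 probes lie between -0.27 and -0.47 at day 6 and the 4 miR-10 probes between -0.09 and -0.11, all with arrays scaled to the 75th percentile.

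Arrays lay on 3 slides, told apart in the scanner files and numbered here, and slide and group were nearly the same division. All 5 AAI day 6 arrays shared slide 1 with 3 of AAI day 4; all 5 of AAI day 2 shared slide 2 with the other 2 of AAI day 4 and 1 vehicle array; the other 4 vehicle arrays were alone on slide 3. No slide held both AAI day 6 and vehicle. The AAI day 4 group was split by slide for every member: miR-196a-5p averaged -0.28 on slide 1 and -0.58 on slide 2, and miR-10a-5p averaged 3.52 on slide 1 and 3.14 on slide 2. When slide entered the fit as a fixed block, the AAI day 6 changes of the miR-196 members were -0.62, -0.64 and -0.70 (adjusted p 0.0123 to 0.0124), and miR-10b-5p was also called (-0.45, adjusted p = 0.0459). That fit links AAI day 6 to vehicle through AAI day 4, and without AAI day 4 array 2 it gave -0.49, -0.51 and -0.63 (adjusted p 0.0593 to 0.0655), where 0 of all 262 miRNAs were called, against 90 with that array. Within slide 2, with 1 vehicle array, miR-196c-5p changed by -0.52 ± 0.18 at AAI day 4 (SE, adjusted p = 0.187), and that fit also called 0 of all 262. Removing array 1 of AAI day 4 (adjusted p = 0.0567) or array 1 of the vehicle group (adjusted p = 0.0681) ended its call at day 4, within a range of 0.00460 to 0.937 over its alternatives.

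The other strands of these hairpins gave no call with the 75th percentile. miR-10a-3p (0.16, adjusted p = 0.284), miR-10b-3p (0.10, adjusted p = 0.639) and miR-196c-3p (0.15, adjusted p = 0.542) had positive changes at AAI day 6 against vehicle. Of these, 0 of 3 passed limma's test (68 of all 262 did) or had an unadjusted p under 0.05 (108 of all 262 had). Of the 3, 1 was called lower in the deposited table, with a median change of -0.05, and the median was also below 0 with quantile normalization (-0.04) and normexp (-0.08), both with 0 calls by limma. miR-196c-3p was detected on 5 AAI day 6 and 4 vehicle arrays. miR-196a-3p, miR-196b-3p and miR-615, which lies within Hoxc5 and Hoxc6, were not detected on any array.

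Among relatives in sequence, the miR-99/100 family, which is close to miR-10, had 3 of 3 members called lower at AAI day 6 (18.7% of all miRNAs were), miR-99a-5p by -0.31, miR-99b-5p by -0.32 and miR-100-5p by -0.34. The let-7 family, the tumour-suppressive miRNAs whose seed overlaps that of miR-196, had 3 of 8 called lower, let-7b-5p by -0.30, let-7d-5p by -0.35 and let-7e-5p by -0.39, with a median of -0.25. At AAI day 2 limma called 0 of either family (1.53% of all miRNAs were called), and 0 had an unadjusted p under 0.05, beside 29 of all 262. At AAI day 4 it also called 0 (1.15% of all were called lower), though 2 of the 3 and 6 of the 8 had an unadjusted p under 0.05. So did 58 of all 262 at AAI day 4. With no scaling the day 6 medians were 0.05 for miR-99/100 and 0.12 for let-7, and with spike-in scaling -0.06 and 0.01, with 0 calls each. Each of these settings called 1 of all 262 lower, and they called 33 and 21 higher. The direction of both lists thus rests on the scaling, as with no scaling it did for miR-196a-5p and miR-196b-5p but not miR-196c-5p.

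The miRNAs most like each member over the 20 arrays were found by Pearson's r of scaled level. They were sought among 226 miRNAs detected on all arrays, members left out, as a description of arrays that share their scaling. miR-196a-5p was most like miR-125a-5p (r = 0.956), let-7b-5p (0.945) and miR-100-5p (0.936). miR-196b-5p was most like miR-151-5p (0.963), miR-99a-5p (0.951) and miR-126a-3p (0.944). miR-196c-5p was most like miR-125a-5p (0.906), miR-100-5p (0.904) and miR-361-5p (0.903). The nearest to miR-10a-5p were miR-23a-3p (0.931), miR-200b-3p (0.887) and miR-200a-3p (0.886), and those to miR-10b-5p were let-7c-5p (0.883), miR-200b-3p (0.872) and miR-429 (0.869). At AAI day 6 miR-125a-5p changed by -0.34 (adjusted p = 0.00325) and miR-23a-3p by -0.04 (adjusted p = 0.807). Within families r was 0.885 for the miR-10 pair and 0.868 to 0.933 for the miR-196 members, and across families it was 0.609 to 0.760. In likeness to miR-196a-5p, miR-196c-5p ranked 4th and miR-196b-5p 7th, and miR-196c-5p ranked 28th to miR-196b-5p. Other miRNAs were thus closer to these members than their own family was.

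Marker miRNAs of other cells are given beside these results, where 18.7% of all miRNAs were called lower at AAI day 6. The red-cell miRNA miR-451-5p fell by 2.73 on the log2 scale, and the summed red-cell signal was 0.0555 to 0.202 at AAI day 6 and 0.407 to 1.34 in vehicle, in units of the 75th percentile. The leukocyte list had 1 of 5 called lower, with a summed signal of 1.81 to 2.50 at AAI day 6 and 2.51 to 2.60 in vehicle. The kidney epithelium list had 3 of 7 called lower, with sums of 23.4 to 29.2 at AAI day 6 and 29.9 to 31.4 in vehicle. The stromal list had 1 of 5 called lower (7.27 to 9.03 at AAI day 6 and 8.36 to 9.61 in vehicle), and the endothelial list 0 of 2 by limma, 1 of them with an unadjusted p under 0.05 (6.98 to 8.78 at AAI day 6 and 8.94 to 9.15 in vehicle). Of all 262, 108 had an unadjusted p under 0.05 at AAI day 6. With no scaling, miR-451-5p was still called lower at AAI day 6 and 0 of the leukocyte, epithelium, stromal and endothelial miRNAs were, and the medians of the epithelium, stromal and endothelial lists turned to 0.14, 0.21 and 0.20. That setting called 1 of all 262 lower and 33 higher, so the 0 is not particular to these lists. miR-144-3p, the other red-cell miRNA on the array, was not tested (0 AAI day 6 and 3 vehicle arrays detected it). The part of these cells in the miR-196 result was not tested. In whole kidney, fewer cells of a type and less of the miRNA per cell cannot be told apart.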

How the data were processed

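Per the file headers, the deposited scanner files came from Agilent Feature Extraction 10.7.1.1 and hold background-subtracted intensity per spot with flags for spots above background, saturated or outlying. Outlier spots were left out, replicate spots averaged per probe and probes summed per miRNA. Each array was divided by its 75th percentile over the 231 miRNAs detected on all 20 arrays, floored at 0.00640 and taken as log2. The deposited series table, an alternative here, holds values of the same arrays that look like log2; their array medians were -3.32 to -3.01, and the authors' scaling and centring of them are not given in the sources used here. miRNAs detected on all arrays of 1 or more groups (262) were tested with limma 3.58.1 in R 4.3.3, in 1 fit of 4 group means with 16 residual degrees of freedom and 2.17 prior ones, two-sided, with Benjamini-Hochberg adjustment over all 262. The fit was also run on simulated data with independent noise and no array-wide or slide effect, which cannot speak to scaling or slide. Between 250 and 328 miRNAs were detected per array, and the number of arrays limits the precision.

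The members and lists were chosen with earlier results of these data known. Named besides the members are their passenger strands, miR-615, the miR-99/100 and let-7 families, and the 3 most correlated miRNAs per member. Same-numbered replicates correlated over 0.1 in 11 of 30 pairs (-0.62 to 0.66). This neither shows nor excludes that the numbers pair samples, and the main fit used no pairing. Alternatives were 20 settings, normexp among them with an offset of 50, and leaving out each of the 20 arrays.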

Additional observations from a re-analysis of the deposited data

Results flagged for a closer look

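On 1 array of AAI day 2, array 4, miR-196c-5p was at -2.08, below the other 4 arrays of its group (-1.86 to -1.79), a gap large enough to pass Dixon's criterion for 5 samples. It was the only one of 20 member and group combinations to do so, and chance alone flags about 1 in 20. AAI day 6 minus AAI day 2 differed from 0 for miR-196a-5p (-0.28) and miR-196c-5p (-0.31), by limma's test with the 75th percentile over detected miRNAs. Neither was called under any other scaling tried, in the deposited table, with outlier spots kept, with the software's total or with the replicate block.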

How the results depend on the processing

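Of the 3 members called at AAI day 6 against vehicle, all 3 were called without any single array (3 to 3). With no scaling, spike-in scaling, median scaling or the software's total gene signal, 0 were called. Those settings called 1, 1, 11 and 4 of all 262 lower, in that order, against 49 in the main setting. Their 0 thus says little that is particular to the members. The 1 call at AAI day 4 against vehicle became 0 under those settings and under the 75th percentile over all miRNAs, the deposited table, the mean of log2 probes, normexp, only the groups compared, quantile normalization, slide as a random block and the replicate block (0 to 1 without single arrays). At day 4 the main setting called 3 of all 262 lower, and the settings named called 0 to 3. Slide as a fixed block without AAI day 4 array 2 gave 0 in every comparison, as did the fit within 1 slide for the day 4 call, but both called 0 of all 262 miRNAs against vehicle, so their 0 says nothing particular to the members. The 2 calls of AAI day 6 against AAI day 2 became 4 with slide as a fixed block, which called 95 of all 262 there against 29 in the main setting. They became 1 with miRNAs detected on at least 1 array, the mean of log2 probes or only the groups compared, and 0 with all scalings tried beside the main one, the deposited table, flagged spots kept, normexp, the software's total and the replicate block (0 to 2 without single arrays). The settings that gave 0 called 1 to 16 of all 262 lower, against 20 in the main setting. AAI day 4 against AAI day 2 gave 3 calls with slide as a fixed block, which called 34 of all 262 there, and 0 with that block without AAI day 4 array 2, with slide as a random block and within 1 slide. The F test gave 0 with no scaling, spike-in scaling, median scaling, the software's total and the deposited table. Whether the replicate numbers pair the samples is not known, and the block by number kept 3 calls at AAI day 6 against vehicle. Values that changed sign with no scaling were, at AAI days 2, 4 and 6 against vehicle, 0.26, 0.14 and 0.055 for miR-196a-5p, 0.15, 0.15 and 0.040 for miR-196b-5p, 0.26, 0.22 and 0.27 for miR-10a-5p and 0.21, 0.20 and 0.26 for miR-10b-5p, and, at days 2 and 4, 0.20 and 0.016 for miR-196c-5p. With spike-in scaling they were 0.23, 0.042 and 0.17 for miR-10a-5p and 0.18, 0.021 and 0.15 for miR-10b-5p at days 2, 4 and 6, and 0.23, 0.12 and 0.17 for the a, b and c members of miR-196 at day 2. With the software's total they were 0.049 for miR-196a-5p and 0.055 for miR-10a-5p at day 2, and 0.12 for miR-10a-5p and 0.11 for miR-10b-5p at day 6. At day 2 miR-10a-5p was 0.060 in the deposited table, 0.026 with normexp, 0.055 with quantile normalization, 0.0082 with slide as a fixed block (with or without AAI day 4 array 2) and within 1 slide, and 0.034 with slide as a random block, where miR-196a-5p was 0.0014. Without single arrays, day 2 values spanned -0.073 to 0.023 for miR-10a-5p and -0.056 to 0.0013 for miR-196a-5p. The 75th percentile used for scaling averaged 367 signal units in vehicle and 452, 472 and 480 at AAI days 2, 4 and 6. Dividing by it lowers the AAI values against vehicle, compared with no scaling. Why it was higher in the AAI groups was not tested, nor was the cause of the other shifts. Signal over background limits miR-196c-5p most, at 74.3 to 166 summed signal units per array.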
